A study of Mus musculus with 50 samples.

Results

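The genes described here encode the machinery that removes the cap from mRNA and degrades the uncapped body from its 5′ end. They were chosen by name: the rows of the count table for Dcp1a, Dcp1b, Dcp2, Dcps, Edc3, Edc4, Xrn1, Ddx6, Lsm1 and Patl2. All 10 were found among the 16614 genes of the table, and all 10 passed the filter on low counts that left 15029 genes for testing. They were measured in 24 oocytes labelled cKO-Zfp36l2, a conditional knockout of Zfp36l2, and in 26 Floxed oocytes, whose targetable alleles served as the control (F/F- in the protocol). Each oocyte was a library of its own. There were 4 knockout mice, which gave 1, 7, 8 and 8 oocytes, and 4 floxed mice, which gave 5, 7, 7 and 7. All females were 5 weeks old and had received 10 IU of PMSG, a gonadotrophin that makes follicles grow, 46 hours before collection. The germinal vesicle oocytes, which are arrested in meiotic prophase, were collected in 5 μM milrinone, an inhibitor that keeps them arrested, and were stripped of granulosa cells and zona. The sources used here do not name the promoter that drove the Cre recombinase.

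The cap is removed by the enzyme DCP2 together with its cofactor DCP1, which exists as the paralogues DCP1A and DCP1B. EDC3 and EDC4 hold this complex together and stimulate it. The helicase DDX6, the PAT1 proteins and the ring of LSM1 to LSM7 lead mRNAs with shortened tails to it, and the exonuclease XRN1 then digests the uncapped RNA. DCPS works at the other end of decay and hydrolyses the cap left on short fragments. Mouse oocytes largely cease transcription by the end of their growth and then depend on stored mRNA. Whether transcription had ceased in each oocyte used here was not measured, and counts do not tell synthesis from decay. In mouse the Dcp1a and Dcp2 mRNAs are known to be translated when meiosis resumes, as maternal mRNA starts to be cleared. PATL2 is an oocyte-enriched PAT1 relative, and in humans its loss causes failure of oocyte maturation. ZFP36L2 is an RNA-binding protein that recognises AU-rich elements and brings the mRNAs that carry them to decay.

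The 3′ untranslated regions of the members were searched on the transcript strand for TATTTAT, the core of the AU-rich element that ZFP36 proteins bind. It was found in 4 of the 10 members, Dcp1a, Dcp1b, Dcp2 and Edc3, against 27.4% of 15057 genes with an annotated region of at least 20 bases. The search used a single annotated transcript per gene, the longest protein-coding match by RefSeq accession, and no other transcripts. For Xrn1 this transcript has 5499 bases, 218 of them in the region searched, whereas the annotated exons of the gene cover 18585 bases. The sites of Edc3, Dcp1b and Dcp1a are shown because these genes differ in their response below. The capitals mark the match, the flanks are 10 bases on each side, and the build is mm10 (GRCm38, GENCODE).
Edc3 site, chr9:57750554-57750580, plus strand: gcttctagctTATTTATtggcttgcct
Dcp1b site, chr6:119220382-119220408, plus strand: ttctcagagcTATTTATtaatagaatc
Dcp1a site, chr14:30524319-30524345, plus strand: ccatggtttcTATTTATgcttttatgg

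Among untranslated regions within 10% of the same length, TATTTAT occurred in 60.9% for Edc3, 33.6% for Dcp1b and 58.05% for Dcp1a. Dcp2, whose region of 7240 bases is the longest of the members, held 2 matches, and 75.4% of regions of like length held at least 1. Ddx6 held none in 4250 bases, where 61.0% of like regions hold one, and its shorter relative ATTTA occurred 7 times. The pentamer ATTTA, which every TATTTAT contains, was absent from Dcps alone among the members. A match here is a string of letters and not a measured binding site.

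The targeted gene was low in both genotypes. Zfp36l2 (chromosome 17, 84183931 to 84187947) had 2.77, 1.61, 2.56 and 1.06 CPM (its counts as a share of the library, scaled to 1000000) in knockout mice 1 to 4, against 3.51, 1.96, 4.17 and 3.44 CPM in floxed mice 1 to 4 (log2 fold change −0.78, SE 0.43, edgeR adjusted p = 0.208). The deposited count is a single value for the gene, and the sources used here do not name the deleted part. This count therefore does not check the labels, and every direction rests on them. Oocyte totals were 4332108 to 6233840 counts in knockout and 1746007 to 6120317 in floxed oocytes. The 10 oocyte markers examined summed to 4186 to 4638 CPM in knockout and 4037 to 4977 CPM in floxed mice. Of 10 cumulus and granulosa markers 8 were in the table, and they summed to 155 to 266 CPM in knockout and 152 to 223 CPM in floxed mice. None of the 8 was called, and their directions were mixed. Kitl had 12.9, 45.9, 51.6 and 49.6 CPM in knockout mice 1 to 4, against 15.1, 21.0, 25.5 and 23.6 CPM in floxed mice 1 to 4. Inha had 23.1 to 58.6 CPM in knockout and 13.9 to 26.9 CPM in floxed mice. Cyp19a1 had 61.9 to 87.7 CPM in knockout and 60.5 to 101 CPM in floxed mice. For Nr5a2 the ranges were 42.1 to 45.3 CPM in knockout and 40.5 to 57.7 CPM in floxed mice. Of the oocyte markers 1 was called higher, the germ cell helicase gene Ddx4 (158 to 203 CPM in knockout and 84.1 to 107 CPM in floxed mice), and 1 lower, the meiotic kinase gene Mos (248 to 284 CPM in knockout and 286 to 329 CPM in floxed mice). The part of these markers in the results below was not tested.

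In oocytes labelled knockout, 3 of the 10 members rose and 2 fell, and 5 did not pass the test. Ddx6, Edc3 and Dcp2 rose 1.98-fold, 7.06-fold and 1.38-fold. Dcp1b and Dcps were 6.79-fold and 1.67-fold lower. Counts of a mouse's oocytes were summed, and the 4 knockout and 4 floxed sums were compared with edgeR's quasi-likelihood test, with p-values adjusted over all 15029 genes (Benjamini-Hochberg, threshold 0.05). By the same rule 27.6% of all tested genes were called, 14.4% higher and 13.2% lower. The median log2 fold change was 0.20 over the members and −0.01 over all tested genes. The 4 knockout mice lay above all 4 floxed mice for 4 members and below them for 1, where 31.0% of all tested genes showed such a gap, 16.0% above and 15.0% below. CPM are shares of a library, so a change in a transcript's amount per oocyte cannot be told from a change in the rest of the mRNA.

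**Figure D1:**
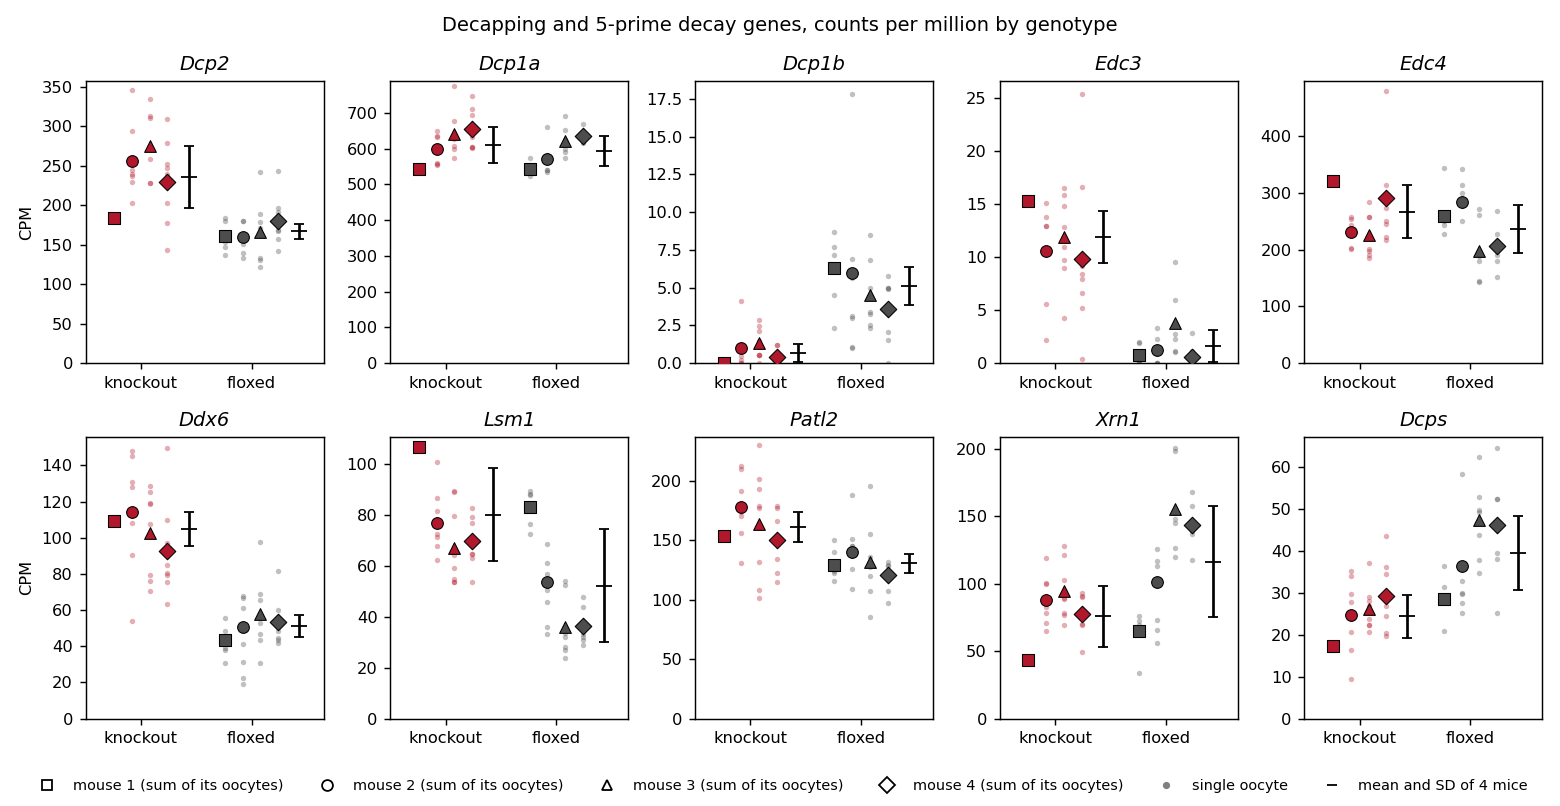
CPM of the 10 genes by genotype on linear axes from 0, with large symbols for the sum of each mouse's oocytes, small points for single oocytes, and bars for mean and SD of 4 mice. Knockout mice lie above all floxed mice for Dcp2, Edc3, Ddx6 and Patl2 and below them for Dcp1b. The squares of mouse 1 are the highest of both genotypes for Lsm1 and the lowest for Xrn1.

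Within the decapping enzyme, the catalytic subunit and its cofactors did not move together. Dcp2 (chromosome 18, 44380502 to 44424969) had 184, 256, 275 and 229.5 CPM in knockout mice 1 to 4, against 162, 159.5, 166 and 181 CPM in floxed mice 1 to 4. The lowest knockout mouse, mouse 1 with its single oocyte, stood just above the highest floxed mouse. Dcp2 rose by 0.46 on the log2 scale (SE 0.12, edgeR adjusted p = 0.0197), and single oocytes ran from 143 to 346 CPM (median 246) in knockout and from 122 to 243 CPM (median 164) in floxed mice. The call was lost without floxed mouse 2 (adjusted p = 0.0598) or without knockout mouse 2, 3 or 4 (adjusted p = 0.087, 0.086 and 0.055).

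Dcp1a (chromosome 14, 30479535 to 30527063) was the most abundant member and showed no difference at this precision. It had 542, 600.2, 640.4 and 654 CPM in knockout mice, against 544, 572, 622 and 636 CPM in floxed mice. The groups overlapped over nearly their whole range. The log2 fold change was −0.00 (95% interval −0.19 to 0.19, adjusted p = 0.984).

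Its paralogue Dcp1b (chromosome 6, 119175253 to 119221616) was scarce in both genotypes and close to the detection limit in knockout oocytes. Knockout mice 1 to 4 had 0, 0.993, 1.33 and 0.400 CPM, against 6.31, 5.96, 4.54 and 3.596 CPM in floxed mice 1 to 4. All knockout mice were thus below all floxed mice. The 0 of knockout mouse 1 comes from 1 oocyte, where a count of 0 allows up to 0.693 CPM (3 counts in 4332108, counting error only). The log2 fold change was −2.76 (SE 0.63, adjusted p = 0.011), and single oocytes held 0 to 22 counts in knockout (7 of 24 at 0) and 0 to 74 counts in floxed mice (1 of 26 at 0).

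The balance of the DCP1 paralogues differed between genotypes. The log2 ratio of Dcp1a to Dcp1b was 10.08, 8.65, 8.46 and 9.51 in knockout mice, against 6.32, 6.47, 6.95 and 7.28 in floxed mice. The means differed by 2.42 (exact two-sided permutation test over 70 arrangements of the mice, p = 0.0286, the smallest it can give, and 0.0429 adjusted over the 3 paralogue ratios computed). The size of this ratio depends on the 0.5 CPM added to both genes, and it was 3.30 with 0.1 CPM added. Per transcript length the level of Dcp1a exceeded that of Dcp1b in every mouse, at 109 ± 9.01 against 0.205 ± 0.179 CPM per kilobase in knockout mice and 106 ± 7.71 against 1.54 ± 0.381 CPM per kilobase in floxed mice (SD, n = 4 each).

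Of the enhancers of decapping, Edc3 rose and Edc4 did not pass. Edc3 (chromosome 9, 57708540 to 57752499) had 15.2, 10.6, 11.9 and 9.76 CPM in knockout mice, against 0.751, 1.27, 3.81 and 0.589 CPM in floxed mice. The groups did not overlap, and floxed mouse 3 was the highest of the controls. The log2 fold change was 2.82 (SE 0.58, adjusted p = 0.00739) and 3.72 without floxed mouse 3. Among single oocytes, every knockout oocyte held at least 2 counts of Edc3, whereas 8 of 26 floxed oocytes held none. At a common depth of 3000000 counts, Edc3 was detected in 24 of 24 knockout and 15 of 23 floxed oocytes.

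Edc3 shares 1284 of its 5804 annotated exon bases with Clk3 on the opposite strand, and the library kit does not mark strand. Clk3, which encodes a kinase of splicing factors, had 120.3, 119, 130.3 and 132 CPM in knockout mice, against 151, 147, 161 and 157 CPM in floxed mice (log2 fold change −0.34, adjusted p = 0.0128). Whether reads of the shared bases were counted for Edc3, and their part in its difference, was not tested.

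Edc4 (chromosome 8, 105880881 to 105894908), the scaffold that links DCP1 and DCP2, had 321, 231, 226 and 291 CPM in knockout mice, against 259, 284, 198 and 206 CPM in floxed mice. The groups overlapped (log2 fold change 0.14, 95% interval −0.21 to 0.48, adjusted p = 0.545). It shares 458 of 5497 exon bases with Nrn1l on the same strand, which had 98.8 to 116 CPM in knockout and 48.0 to 103 CPM in floxed mice.

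Of the activators that bring mRNAs to the decapping enzyme, Ddx6 had the smallest p of the members. Ddx6 (chromosome 9, 44604892 to 44640731) had 109, 114, 102 and 92.5 CPM in knockout mice, against 43.5, 50.5, 57.6 and 53.6 CPM in floxed mice. All knockout mice lay well above all floxed mice (log2 fold change 0.99, SE 0.13, adjusted p = 0.00112). Single oocytes ran from 53.7 to 149 CPM (median 108) in knockout and from 18.9 to 97.7 CPM (median 47.5) in floxed mice. All 24 knockout oocytes exceeded the floxed median, and 13 exceeded the highest floxed oocyte. Within mice, Ddx6 CPM went with the total count of the oocyte (Pearson r = 0.42, n = 49 oocytes). The median total was 5211210 counts in knockout and 4761241 in floxed oocytes. The part of depth in the difference between genotypes was not tested.

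Patl2 (chromosome 2, 122120108 to 122186189) fell just short of the threshold. It had 154, 178, 164 and 149.9 CPM in knockout mice, against 129, 139.9, 132 and 120.3 CPM in floxed mice. The groups did not overlap, but the adjusted p was 0.0505 (log2 fold change 0.27, SE 0.09). With DESeq2 it passed (adjusted p = 0.0382, where 17.2% of genes were called higher), as it did in limma with the oocytes of a mouse weighted equally (adjusted p = 0.0461, where 15.9% were called higher). It did not pass with RLE factors, without the filter, without mouse 1 of both genotypes or in any of the 8 fits without 1 mouse (log2 fold change 0.17 to 0.31, adjusted p = 0.0609 to 0.281). Its widely expressed paralogue Patl1 had 49.9, 48.2, 52.6 and 51.0 CPM in knockout mice, against 50.03, 55.7, 62.5 and 61.6 CPM in floxed mice (adjusted p = 0.207).

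The ratio of the PAT1 paralogues was higher in knockout mice. The log2 ratio of Patl2 to Patl1 was 1.61, 1.87, 1.63 and 1.55 in knockout mice, against 1.36, 1.32, 1.07 and 0.96 in floxed mice. The groups did not overlap, and their means differed by 0.49 (exact permutation p = 0.0286, the smallest possible, 0.0429 over 3 ratios). For Lsm14a over Lsm14b, partners of DDX6 in stored mRNA particles, the ratio was 0.17, 0.93, 1.04 and 1.13 in knockout mice, against 0.48, 1.12, 1.01 and 1.03 in floxed mice. These groups overlapped (difference −0.09, exact permutation p = 0.714, adjusted 0.714), and mouse 1 was lowest in both.

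**Figure D2:**
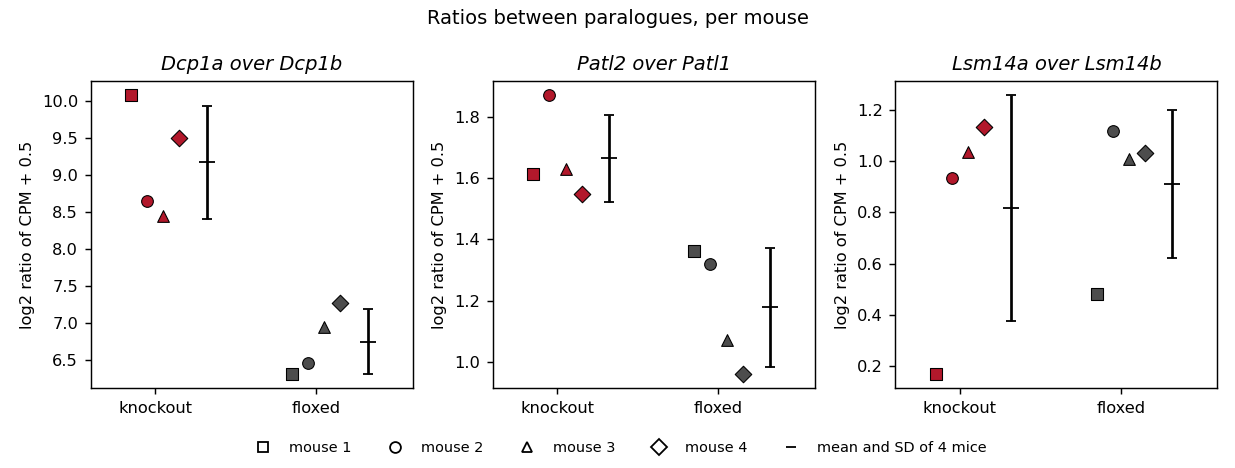
Log2 ratio of CPM + 0.5 between paralogues in each mouse, with mean and SD of 4 mice per genotype. The knockout mice lie above all floxed mice for Dcp1a over Dcp1b and for Patl2 over Patl1 and overlap them for Lsm14a over Lsm14b. Each panel has its own axis, which does not start at 0.

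Lsm1, the subunit that sets the cytoplasmic LSM ring apart from the nuclear one, was called or not depending on mouse 1. Lsm1 (chromosome 8, 25785288 to 25803975) had 106, 76.8, 67.0 and 69.6 CPM in knockout mice, against 83.0, 53.4, 35.9 and 36.3 CPM in floxed mice. Mouse 1 was the highest of both genotypes, and floxed mouse 1 overlapped the knockout mice. With all mice the log2 fold change was 0.58 (SE 0.27, adjusted p = 0.144), and without mouse 1 of both genotypes it was 0.67 (SE 0.18, adjusted p = 0.0156). In fits without 1 mouse it was called in 1 of 8, without floxed mouse 1 (0.83, adjusted p = 0.022), and it was lowest without knockout mouse 1 (0.36, adjusted p = 0.355). The shared ring subunits Lsm2 to Lsm7 had log2 fold changes between −0.85 (Lsm7) and −0.11 (Lsm5), and none of the 6 was called (lowest adjusted p = 0.0559). Whether Lsm1 differs from them was not tested.

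Xrn1 and Dcps, whose products act on the uncapped RNA and on cap remnants, both had lower means in knockout mice. The exonuclease gene Xrn1 (chromosome 9, 95954760 to 96057803) had 43.4, 87.9, 94.5 and 77.3 CPM in knockout mice, against 65.1, 101, 156 and 143 CPM in floxed mice. Mouse 1 was the lowest of both genotypes, the reverse of Lsm1. The log2 fold change was −0.66 (SE 0.31, adjusted p = 0.139) with all mice and −0.71 (SE 0.14, adjusted p = 0.00373) without mouse 1 of both genotypes. In fits without 1 mouse it was called in 1 of 8, without floxed mouse 1 (−0.89, adjusted p = 0.0231), and it was nearest to 0 without floxed mouse 3 (−0.49, adjusted p = 0.309). In mice 2 to 4, the knockout mice spanned 77.3 to 94.5 CPM and the floxed mice 101 to 156 CPM, with no overlap.

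Dcps (chromosome 9, 35124408 to 35176061), the scavenger decapping enzyme, had 17.3, 24.6, 26.02 and 29.3 CPM in knockout mice, against 28.5, 36.2, 47.2 and 46.0 CPM in floxed mice. Only floxed mouse 1 lay within the knockout range, and mouse 1 was the lowest of its group in both genotypes. The log2 fold change was −0.74 (SE 0.23, adjusted p = 0.0391). This call was lost in 5 of 8 fits that left out 1 mouse: without floxed mouse 2, 3 or 4 (adjusted p = 0.0714, 0.1004 and 0.112) and without knockout mouse 2 or 3 (adjusted p = 0.0687 and 0.0612).

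Mouse 1 was also extreme in base composition within each genotype. A GC index was taken as the mean log2(CPM + 1) of the 3197 genes with the most GC-rich transcripts minus that of the 3197 with the most AT-rich ones, among 9591 genes without the members. It was −0.15, −0.60, −0.59 and −0.57 in knockout mice 1 to 4, against −0.21, −0.50, −0.77 and −0.75 in floxed mice 1 to 4. Mouse 1 was highest in both genotypes, and knockout mouse 1 is a single oocyte. Floxed mouse 2 lay between floxed mouse 1 and floxed mice 3 and 4. The part of GC content in the values of Lsm1, Xrn1 and Dcps was not tested. Without mouse 1 of both genotypes, 4 members were called higher (Ddx6, Edc3, Dcp2 and Lsm1) and 3 lower (Dcp1b, Dcps and Xrn1), while 43.9% of all tested genes were called, 20.8% higher and 23.1% lower.

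**Figure D3:**
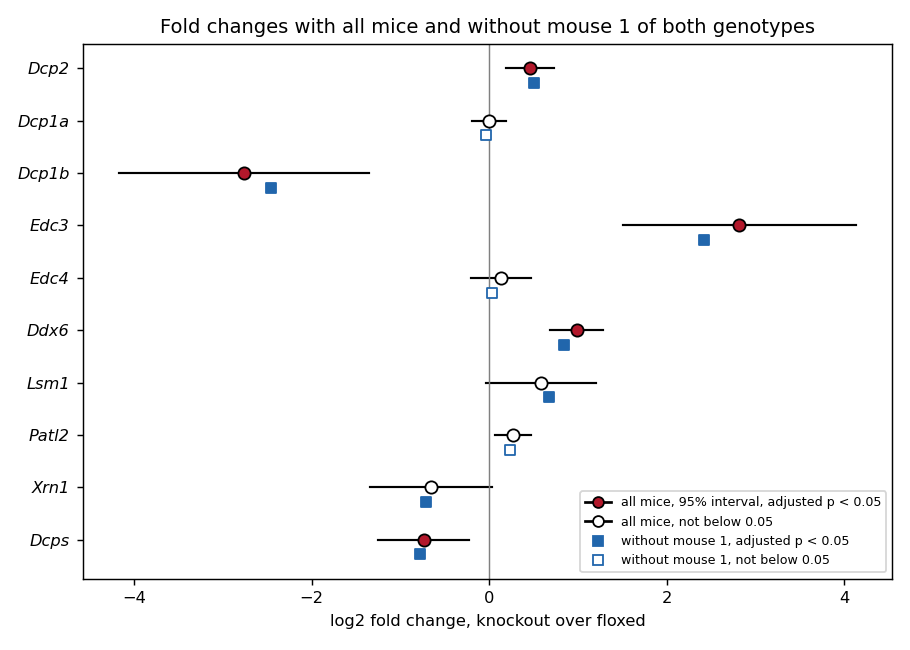
Log2 fold change of each gene, knockout over floxed, from edgeR with all mice (circles with 95% intervals) and without mouse 1 of both genotypes (squares), where filled symbols have an adjusted p under 0.05. Of these fits Lsm1 and Xrn1 pass in the one without mouse 1, and Dcp1a and Edc4 lie near 0 in both fits.

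The order of levels per kilobase of transcript was similar at its top in both genotypes. Each level was divided by the length of a single annotated transcript per gene, so the order depends on the transcript chosen. Dcp1a was first, at 109 ± 9.01 CPM per kilobase in knockout and 106 ± 7.71 in floxed mice, followed by Patl2 at 66.2 ± 5.08 and 53.6 ± 3.31 and Edc4 at 55.9 ± 9.69 and 49.5 ± 8.76 (SD, n = 4 mice each). Patl2 and Edc4 overlapped in both genotypes, and Dcp1a overlapped neither. In knockout mice Lsm1, Dcp2, Dcps, Ddx6 and Xrn1 followed at 30.0, 27.4, 19.1, 17.2 and 13.8 CPM per kilobase, each overlapping the next. In floxed mice the order was Dcps, Xrn1, Lsm1, Dcp2 and Ddx6 at 31.0, 21.2, 19.6, 19.4 and 8.46 CPM per kilobase. There Dcps lay apart from Edc4 above it and Ddx6 apart from Dcp2, and the neighbours between overlapped. The last places were exchanged: Edc3 stood above Dcp1b in knockout mice (2.08 ± 0.422 against 0.205 ± 0.179 CPM per kilobase), and Dcp1b above Edc3 in floxed mice (1.54 ± 0.381 against 0.281 ± 0.262), without overlap in either case.

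Together the members took 0.149 to 0.161% of all counts in knockout and 0.132 to 0.143% in floxed mice. Dcp1a alone made up 36.3 to 40.8% of the members' counts in knockout and 40.7 to 44.6% in floxed mice.

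The SD among single oocytes of a mouse was smallest for Dcp1a and largest for the scarce members. It includes counting error, which weighs most at low counts, so it does not rank the members by biological variation. At a depth of 3000000 counts the within-mouse SD of log2(CPM + 1) averaged 0.13 for Dcp1a in knockout and 0.08 in floxed mice (3 and 4 mice with at least 3 oocytes). For Edc3 it was 0.92 and 0.83, and for Dcp1b 0.60 and 0.83. Dcp1b was detected in 15 of 24 knockout and 22 of 23 floxed oocytes at that depth, where 1 count is worth 0.333 CPM, so the knockout level is close to that of single counts. For the remaining 7 members the averages lay between 0.25 and 0.45 in knockout and between 0.20 and 0.47 in floxed mice. With counts as deposited, which keep all 26 floxed oocytes, the floxed average of Xrn1 went from 0.22 to 0.34. The knockout average of Xrn1 was 0.31 either way, so the order of the genotypes turned. This was the only 1 of 20 averages to shift by more than its SD between mice.

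Deviations of oocytes from their mouse's mean were correlated between members over the 49 oocytes of mice with more than 1. Dcp2 and Xrn1 varied together (Pearson r = 0.52, with 0.60 in 23 knockout and 0.46 in 26 floxed oocytes). Ddx6, Lsm1 and Patl2 had r between 0.40 and 0.43 with each other. For Ddx6 and Patl2 it was 0.63 in knockout and 0.24 in floxed oocytes, and for Lsm1 and Patl2 0.57 and 0.28. In floxed oocytes Patl2 went more with Edc4 (r = 0.50) and Edc3 (r = 0.45), where knockout oocytes had r of −0.06 and 0.08. The pairs named here were picked from 45 with their values known. Edc4 ran against Dcp2 (r = −0.56) and Xrn1 (r = −0.55), and Patl2 against both (r = −0.43 each). These oocytes went through the same library kit but differed in depth and base composition. Against the log2 total count of the oocyte, r was 0.44 for Xrn1, 0.42 for Ddx6 and 0.29 for Lsm1. It was −0.01 for Dcp2, −0.08 for Edc4 and −0.15 for Patl2. Against the GC index of the same oocytes, r was −0.75 for Xrn1, −0.41 for Dcp2 and −0.49 for Ddx6, whose transcripts hold 42.6, 42.7 and 43.4% GC, and 0.73 for Edc4, with 55.5% GC. Lsm1 and Patl2, with 47.1 and 50.1% GC, had r of 0.08 and 0.30. The part of depth and base composition in these correlations was not tested.

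**Figure D4:**
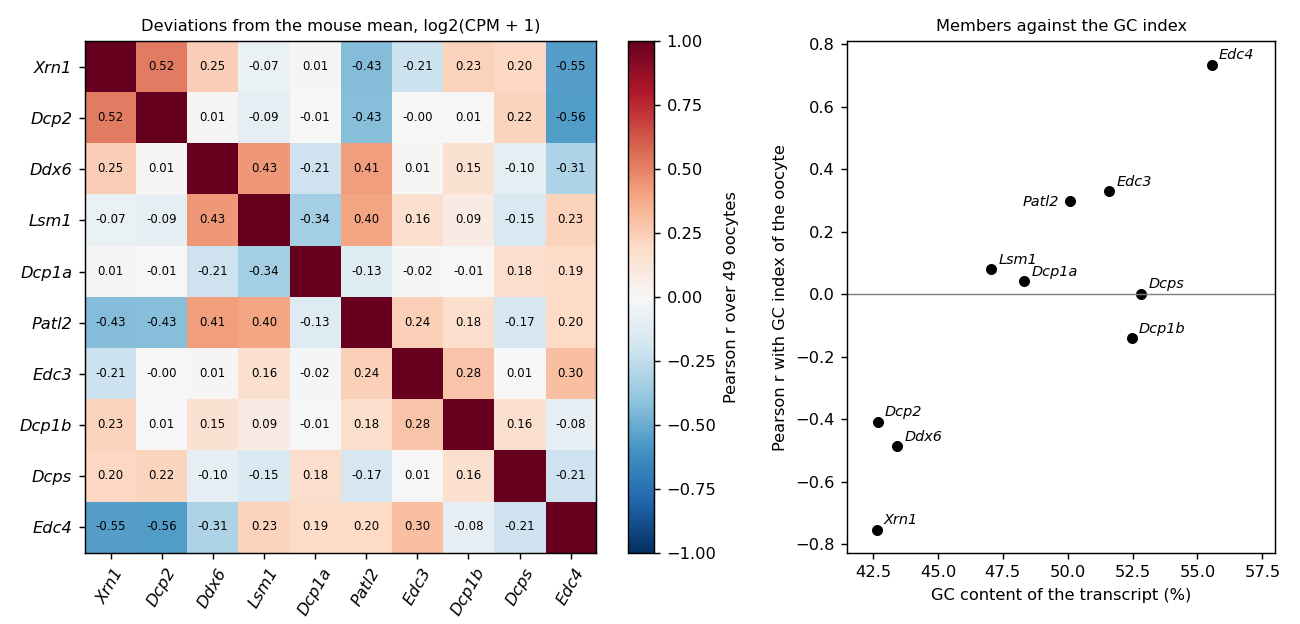
Left, Pearson r between members over 49 oocytes, computed on deviations of log2(CPM + 1) from the mouse mean and ordered by transcript GC content. Right, r of each member with the GC index of the oocyte against its transcript's GC content in percent. Xrn1 and Edc4 lie at the ends of both axes, at r of −0.75 and 0.73.

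The genes whose variation among oocytes was most like that of Ddx6 were B3gnt2, Hbp1, Stxbp3, Ect2 and Il1r1, with r between 0.72 and 0.78 over the same 49 oocytes and among 9132 genes compared. All 5 also correlated with the total count of the oocyte (r from 0.42 to 0.52), as Ddx6 did (r = 0.42), and against the GC index (r from −0.68 to −0.42).

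Of 24 other genes of decapping and decay, 2 rose, 3 fell and 19 did not pass, with a median log2 fold change of −0.13. By the same rule 5 of the 24 were called, beside 27.6% of all tested genes, and the difference between these shares was not tested. Pnrc2, which in human cells couples DCP1A to nonsense-mediated decay, rose 3.68-fold. It had 33.5, 44.8, 36.7 and 39.0 CPM in knockout mice, against 7.96, 8.41, 12.2 and 12.1 CPM in floxed mice (edgeR adjusted p = 0.000617). All knockout mice lay above all floxed mice.

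Fhit, a dinucleoside triphosphate hydrolase, was 4.28-fold lower (3.58 ± 2.28 CPM in knockout and 15.5 ± 3.51 CPM in floxed mice, edgeR adjusted p = 0.00793, SD, n = 4 each). Nudt16, a Nudix hydrolase with decapping activity, was 2.58-fold lower, at 1.54 ± 0.45 CPM in knockout and 4.00 ± 1.04 CPM in floxed mice (edgeR adjusted p = 0.0219). Eif4e2, a cap-binding protein that represses translation, was 1.24-fold lower, at 74.3 ± 2.47 CPM in knockout and 89.5 ± 7.07 CPM in floxed mice (edgeR adjusted p = 0.0436). In fits without 1 mouse the Eif4e2 call was lost in 4 of 8 and the Nudt16 call in 2 of 8. The nuclear exonuclease Xrn2 had 220 ± 39.2 CPM in knockout and 221 ± 31.96 CPM in floxed mice, and Eif4enif1, which carries eIF4E into DDX6-containing particles, had 424 ± 53.2 CPM in knockout and 424 ± 42.3 CPM in floxed mice. Neither passed the test (adjusted p = 0.857 and 0.82). Without mouse 1 of both genotypes, 9 of the 24 were called lower and 3 higher, where 23.1% and 20.8% of all tested genes were.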

How the data were processed

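RNA of single oocytes was turned into cDNA with the SMARTer Ultra Low Input kit, per the labels' protocols; reads carry neither molecular identifiers nor strand. The authors deposited raw whole-number read counts per gene. STAR and mm10 are named in the submitters' processing notes; the sources used here name no counting tool and do not say how shared or duplicate reads were treated. The highest count was 8354.

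Counts were summed per mouse and tested with edgeR 4.0.16 in R 4.3.3 (TMM, filterByExpr with a minimum count of 10, robust quasi-likelihood test); the standard error is the fold change divided by the square root of F. CPM is a gene's share of a mouse's or oocyte's total. Alternatives used DESeq2 1.42.0, limma 3.58.1, RLE factors, no filter, a replicate block and leaving out mice. The edgeR step was checked on simulated data with the same dispersion in every mouse. That setting held no extra spread for knockout mouse 1, which is a single oocyte, so it does not check this feature of the design. Thinned counts left out 3 oocytes under 3000000. Coordinates, transcript lengths and untranslated regions come from GENCODE on mm10, with 16350 rows matched by RefSeq accession. The members, the other genes listed and the rule for genes named (all members, called genes of the list, both genes of each ratio, and the 5 genes most like the member with the smallest p) were chosen with earlier results of these data known. Xrn2, Eif4enif1, Lsm5, Lsm7, Clk3, Nrn1l, Kitl, Inha, Cyp19a1, Nr5a2, Ddx4 and Mos outside that rule, and the GC index, were chosen after values were seen. A called gene of the list is not reported here by name. PCR copies are not independent molecules, so intervals reflect counting error and the spread of mice.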

Additional observations from a re-analysis of the deposited data

How the results depend on the processing

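Ddx6, Edc3 and Dcp1b kept their direction and their call in all 14 alternative fits, with log2 fold changes of 0.85 to 1.11, 2.42 to 3.72 and −3.26 to −1.77; the last value is from limma on log2(CPM + 1), where the added 1 shrinks low levels. Leaving out 1 mouse, members called higher numbered 2 to 4 and lower 1 to 3 (1 without knockout mouse 2 or 3 or floxed mouse 2, 3 or 4), other decay genes lower 1 to 6 and higher 2 to 3, and all genes higher 1359 to 2538 and lower 1219 to 2822. Without mouse 1 of both genotypes, 9 other decay genes and 3549 of all genes were lower.

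Mice share numbers across genotypes, but same-numbered mice did not all deviate together (r of 0.32, −0.00, 0.25 and 0.18 for numbers 1 to 4), so they were not treated as pairs. The mean r was 0.19 for same-numbered and −0.05 for other pairs of mice, a hint from the data and not the design. With a replicate block 5 members were higher (Lsm1 at an adjusted p of 0.00491 and Patl2 at 0.014 joining) and 3 lower (Xrn1 at 0.0054 joining), and 7 other decay genes were lower, where 19.1% and 19.6% of all genes were called higher and lower. For the ratios a paired sign-flip test cannot go below p = 0.125, and the differences of 2.42 (Dcp1a over Dcp1b) and 0.49 (Patl2 over Patl1) did not pass. Nor did they, at 1.97 and 0.56, with 3 mice against 3, where the smallest p is 0.1. With 0.1 and 1 CPM added in place of 0.5, Dcp1a over Dcp1b was 3.30 and 1.95. Without 1 mouse these ratios differed by 2.12 to 2.66 and 0.41 to 0.55, and without knockout mouse 2 both adjusted p were 0.0857. Signs turned only for values near 0: Lsm14a over Lsm14b (−0.24 to 0.12 without 1 mouse, 0.12 without knockout mouse 1), Edc4 (log2 fold change −0.0137 to 0.239 without 1 mouse, lowest without knockout mouse 1) and Dcp1a (−0.0899 to 0.0386 without 1 mouse, with 0.00476 without knockout mouse 1, 0.0175 and 0.0386 without floxed mouse 3 or 4, and 0.037 in limma). Depth limits Dcp1b and Edc3 most, at medians of 2.5 counts per knockout oocyte and 5 per floxed oocyte.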
